A study of Homo sapiens with 16 samples.

Results

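The regions described here are the open-chromatin peaks around RAG1, RAG2 and DNTT, the genes whose products cut and extend antigen receptor gene ends during lymphocyte development. Every peak of the 16 deposited lists was taken from 2 windows of the hg19 build, chr11:36500000-36720000 for RAG1, RAG2 and their flanks and chr10:98050000-98110000 for DNTT, and peaks sharing at least 1 base were merged. This gave 38 regions out of 131357 in the whole series, 29 in the RAG1-RAG2 window (numbered R1 to R29 by position) and 9 in the DNTT window (D1 to D9). They were built from 287 single peaks, 228 in the RAG1-RAG2 window and 59 in the DNTT window. The windows are defined by position, and peak presence and width do not enter that definition. They were picked with earlier results of these data known.

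The libraries are ATAC-seq libraries, made by letting Tn5 transposase cut and tag open DNA in permeable cells. MOLT4 and DND41, established cell lines from human T-cell acute lymphoblastic leukaemia, received 100 nM ACBI-1 or the solvent DMSO. ACBI-1 is a PROTAC that directs SMARCA2 and SMARCA4, the ATPases of the SWI/SNF nucleosome remodelling complexes, and the subunit PBRM1 to degradation. The 8 groups, each of 2 libraries, were ACBI-1 for 24 h or 3 h in each line and DMSO for 24 h or 3 h in each line. Each line is a single culture lineage, so a difference between MOLT4 and DND41 describes these lines and no wider class of leukaemia. The sources used here do not say whether libraries of a group are separate cultures, so p-values measure only how far these libraries scatter, part of which may be technical.

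RAG1 and RAG2 form the recombinase that cuts DNA at recombination signal sequences beside the V, D and J segments of immunoglobulin and T cell receptor genes. RAG1 carries the catalytic site, and RAG2 is its essential partner, with a PHD finger that binds histone H3 trimethylated at lysine 4. DNTT encodes terminal deoxynucleotidyl transferase (TdT), which adds untemplated nucleotides at the cut ends before they are joined. All of them are active in developing thymocytes and are switched off in mature T cells, and TdT is a standard marker of immature lymphoblasts in the clinic.

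The sequences at the start of the 3 genes are shown because they mark where the annotation begins each gene. They are RefSeq sequences of the GRCh38.p14 build, from 250 bases before to 50 bases after the most upstream start of each gene, given 5′ to 3′ on the gene's strand. RAG1 has 8 RefSeq transcripts, and the start shown lies 87.9 kb from the RAG2 start and shares 180 bases with the promoter window of TRAF6, a ubiquitin ligase gene read in the opposite direction. Starts of RAG1 nearer its coding exon are not shown. The coordinates of these sequences are on another build than the peaks, so none was placed on a peak region. Capitals mark matches, on either strand, to the E-box motif CAGNTG bound by E proteins, the GATA motif AGATAA or the ETS motif CAGGAA. Positions are chr11:36510103-36510402 on the plus strand for RAG1, chr11:36598187-36598486 on the minus strand for RAG2 and chr10:96304184-96304483 on the plus strand for DNTT.
RAG1: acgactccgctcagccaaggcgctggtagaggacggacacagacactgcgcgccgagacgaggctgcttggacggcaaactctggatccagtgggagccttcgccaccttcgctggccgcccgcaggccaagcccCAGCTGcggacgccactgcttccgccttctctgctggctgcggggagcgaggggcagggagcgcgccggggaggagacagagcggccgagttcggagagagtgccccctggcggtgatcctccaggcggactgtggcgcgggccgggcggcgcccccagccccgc
RAG2: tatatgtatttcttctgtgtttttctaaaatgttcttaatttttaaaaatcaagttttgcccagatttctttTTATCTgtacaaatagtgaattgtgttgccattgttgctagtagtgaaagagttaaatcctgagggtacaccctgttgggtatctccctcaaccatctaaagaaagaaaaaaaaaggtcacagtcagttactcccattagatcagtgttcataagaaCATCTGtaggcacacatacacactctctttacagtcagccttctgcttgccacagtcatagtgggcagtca
DNTT: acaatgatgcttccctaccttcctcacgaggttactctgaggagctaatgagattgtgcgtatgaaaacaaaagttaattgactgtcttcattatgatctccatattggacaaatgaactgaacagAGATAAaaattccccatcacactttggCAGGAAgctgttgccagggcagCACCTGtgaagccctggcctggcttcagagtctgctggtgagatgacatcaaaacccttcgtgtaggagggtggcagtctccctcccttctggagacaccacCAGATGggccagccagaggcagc

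The upstream RAG1 start, which overlaps that of TRAF6, had 72.3% G or C and 32 CpG dinucleotides, against a median of 58.7% and 14 CpG over 35116 RefSeq promoters of the same length. The RAG2 start had 36.7% G or C and 0 CpG, and the DNTT start had 49.3% and 3 CpG. Each of the 3 sequences held the E-box, which 49.9% of all promoters hold, with 1 match in RAG1, 1 in RAG2 and 2 in DNTT. The GATA motif was in RAG2 and DNTT and in 10.3% of all promoters. The ETS motif was in DNTT and in 28.4% of all promoters, and the RUNX motif TGTGGT, present in 13.1%, had no match in these 3 windows of sequence. No matches overlapped one another. The order of protein-coding genes in this annotation is PRR5L, TRAF6, RAG1, RAG2, IFTAP and LRRC4C on chromosome 11, and ZNF518A, BLNK, DNTT, OPALIN and TLL2 on chromosome 10. BLNK encodes an adaptor of the B cell receptor and IFTAP a protein associated with intraflagellar transport. Peaks in either window can therefore belong to a neighbouring gene.

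The lists held 26145 to 46712 peaks per library. ACBI-1 libraries averaged 30710 ± 2522 peaks and DMSO libraries 42551 ± 3102 (SD, n = 8 each), so a window of any kind tended to hold fewer peaks after ACBI-1. MOLT4 and DND41 libraries averaged 36106 and 37156 peaks, a difference smaller than the spread between libraries (exact permutation p = 0.471). Libraries of 24 h covered 17.7 Mb with peaks on average and libraries of 3 h 15.1 Mb (exact permutation p = 0.00309). The peak names carried 1 tag in the 8 libraries of 24 h and another in the 8 libraries of 3 h, so time and whatever this unexplained tag stands for cannot be told apart. For 8 of the 16 samples the title and the cell line field gave different lines. Lines were taken from the titles, which matched the line code inside the peak names in all 16 lists. Read depth is unknown, so a missing peak may be open chromatin below the detection limit of that list. Fewer open cells and less opening per cell cannot be told apart in such bulk libraries.

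In the RAG1-RAG2 window, 5 of 29 regions had a peak in all 16 libraries, against 9.16% of regions in the whole series. Regions in 1 library were 3 of the 29 but 51% of the series, so these shares do not compare like sets. The 5 regions were R4 at chr11:36531241-36532264, R8 at chr11:36588098-36588684, R9 at chr11:36589255-36589679, R13 at chr11:36619541-36620147 and R28 at chr11:36706228-36707045. R4 and R28 were the widest of the 5, with peaks of 751 ± 79.9 bp and 694 ± 86.1 bp (mean ± SD, n = 16). R8, R13 and R9 averaged 372 ± 106 bp, 322 ± 118 bp and 304 ± 69.2 bp over the same libraries. R6 at chr11:36579907-36580935 and R11 at chr11:36602008-36603564 had a peak in 14 libraries each. R6 was missing from the 2 MOLT4 libraries given ACBI-1 for 24 h, and R11 from 1 ACBI-1 and 1 DMSO library of MOLT4 at 3 h. R11 had the largest peak width of either window, 1117 bp in a DND41 library given ACBI-1 for 24 h. Its smallest was 134 bp in a MOLT4 library given DMSO for 3 h. Of the remaining regions, 13 had a peak in 5 to 12 libraries and 9 in 1 to 3.

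**Figure D1:**
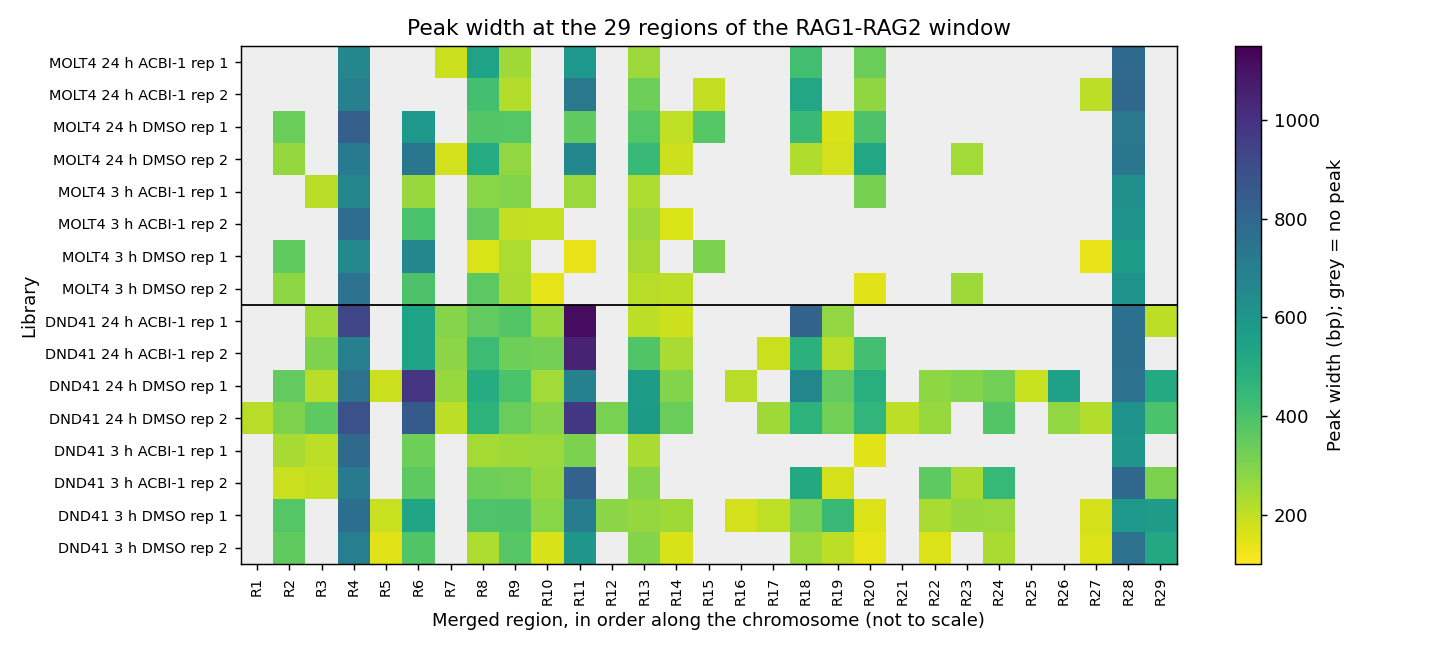
Width in bp (colour; grey where no peak was listed) of the peak at each of the 29 merged regions of the RAG1-RAG2 window (horizontal axis, in order along chromosome 11) in each of the 16 libraries (vertical axis, MOLT4 above the line and DND41 below). R4, R8, R9, R13 and R28 are filled in all 16 libraries. R22, R24 and R29 are among the 11 regions filled in DND41 libraries alone.

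The RAG1-RAG2 window held fewer peaks in MOLT4 than in DND41. MOLT4 libraries had 9 and 10 regions with a peak after 24 h of ACBI-1, 9 and 8 after 3 h of ACBI-1, 13 and 14 after 24 h of DMSO, and 10 and 11 after 3 h of DMSO. DND41 libraries had 14 and 15, then 11 and 16, then 23 and 24, and then 22 and 18 regions in the same 4 groups. Every MOLT4 library was below both DND41 libraries of its own time and treatment, 16 of 16 pairs. The means were 10.5 ± 2.07 regions in MOLT4 and 17.9 ± 4.70 in DND41 (SD, n = 8 each), a difference of -7.38 regions (SE 0.857; two-sided exact permutation p = 0.00154, labels exchanged within time and treatment). That is the smallest p these 1296 exchanges can give. Over genome tiles of 220000 bases, about the length of the window, the adjusted p of this difference was 0.0150 by the same exact test with Benjamini-Hochberg adjustment, and 15.3% of 9987 tiles had fewer regions in MOLT4 at an adjusted p under 0.05. The difference was -5 regions among ACBI-1 libraries and -9.75 among DMSO libraries, both at the smallest exact p that 4 libraries against 4 in 2 strata allow, 0.0556.

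The lines also differed after scaling to the size of each list. Peaks of the window made up 247 ± 44.9 bp per Mb of all peak-covered sequence in MOLT4 libraries and 433 ± 46.3 bp per Mb in DND41 libraries (SD, n = 8 each). The difference was -186 bp per Mb (SE 16.6; exact permutation p = 0.00154) and had the same sign in 16 of 16 pairs. The ranges did not overlap, with 189 to 313 bp per Mb in MOLT4 libraries and 345 to 502 bp per Mb in DND41 libraries. In bases, MOLT4 peaks covered 4118 ± 1082 and DND41 peaks 7095 ± 2156 of the window (exact permutation p = 0.00154).

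Of the 15 regions found in 4 to 15 libraries, 14 had a peak in fewer MOLT4 than DND41 libraries, against 43.3% of 33084 such regions in the genome, and R20 at chr11:36644216-36644741 had a peak in 6 libraries of each line. R3, R7, R10, R19, R22, R24 and R29 reached 4 libraries in DND41 but not in MOLT4. They passed the filter through the line where they are high, so the count is a description. Presence was tested region by region over the whole genome, for regions whose number of peaks could reach a p of 0.05. Of the 7 RAG1-RAG2 regions tested, 6 had a peak in fewer MOLT4 libraries at an adjusted p under 0.05, against 23.3% of 11709 regions in the genome. R10 at chr11:36590627-36590959 had a peak in 2 of 8 MOLT4 and 8 of 8 DND41 libraries, and R29 at chr11:36714704-36715294 in 0 of 8 MOLT4 and 6 of 8 DND41 libraries (exact permutation test with Benjamini-Hochberg adjustment, adjusted p = 0.0311 each). R3 at chr11:36514312-36514698 had 1 against 6 and R19 at chr11:36641040-36641508 had 2 against 7 libraries in the same order. R22 at chr11:36652327-36652806 and R24 at chr11:36678954-36679641 each had a peak in 0 of 8 MOLT4 and 5 of 8 DND41 libraries. For these 4 regions the adjusted p was 0.0433 by the same test. R23 at chr11:36653381-36653719, the seventh region tested, had 2 against 3 libraries and an adjusted p of 1. These line calls depended on the setting, since the 7 called over both windows became 3 with equal list lengths. They became 2 with a test without strata, and also 2 with a replicate block.

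Counting every region regardless of its test, 11 of 29 had a peak in DND41 and none in MOLT4, close to the 40.6% of all 131357 regions that did. With at least 2 DND41 peaks and none in MOLT4 there were 8 of 29, against 8.39% of all regions. Regions in 1 library cannot reach 2 peaks. They made up 3 of the 29 but 51% of all regions, so these shares do not compare like sets. R15 at chr11:36626963-36627437 was the reverse, with 3 MOLT4 peaks and 0 DND41 peaks. Its values were looked at before it was singled out. The regions with a peak in 1 to 3 libraries held 18 peaks of 149 to 551 bp, of which 3 were in MOLT4 and 15 in DND41.

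**Figure D2:**
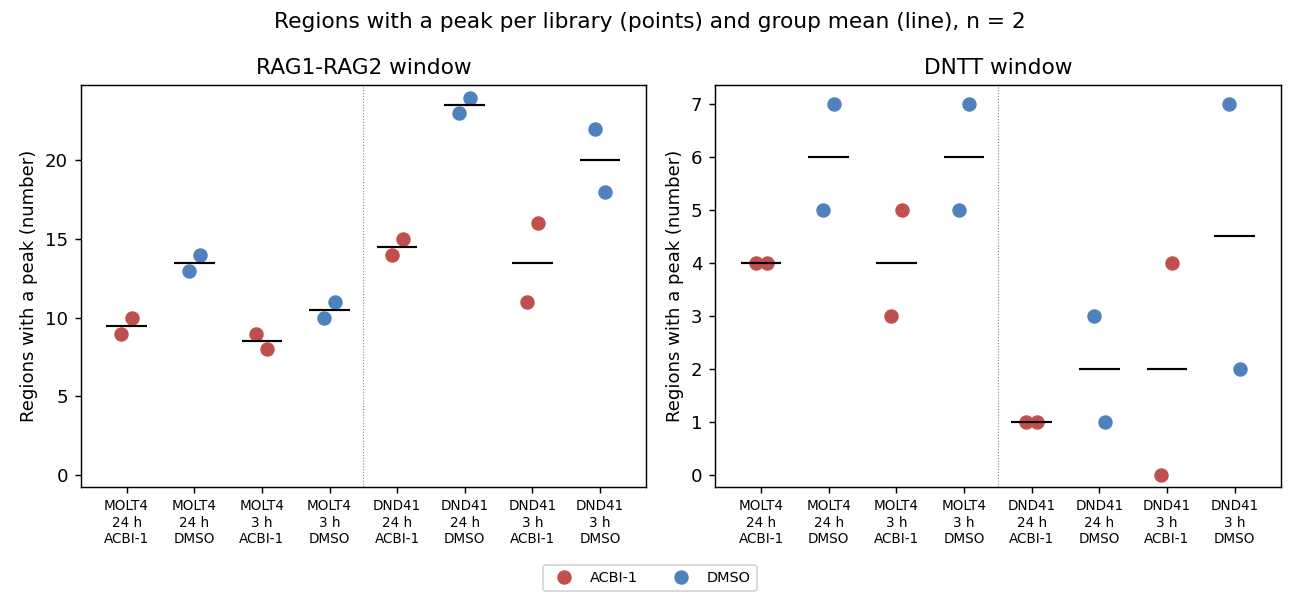
Number of regions with a peak (vertical axis) in the RAG1-RAG2 window (left) and the DNTT window (right) for each library (points) of the 8 groups, with the group mean (line, n = 2). In the RAG1-RAG2 window MOLT4 libraries hold 8 to 14 regions and DND41 libraries 11 to 24, and in the DNTT window MOLT4 libraries hold 3 to 7 and DND41 libraries 0 to 7.

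After ACBI-1 the RAG1-RAG2 window held fewer regions with a peak, and so did the peak lists as a whole. ACBI-1 libraries averaged 11.5 ± 3.07 regions and DMSO libraries 16.9 ± 5.62 (SD, n = 8 each), a difference of -5.38 (SE 0.857; exact permutation p = 0.00154, 16 of 16 pairs). The ACBI-1 mean was 68.1% of the DMSO mean in the window, against 72.1% for all regions of a library and a median of 73.5% over tiles. The tile-adjusted p was 0.0196, and 29.2% of 9356 tiles had fewer regions after ACBI-1 at an adjusted p under 0.05, so such a loss was common in the genome. On the share of the library's peak-covered bases, ACBI-1 libraries had 338 ± 96.4 bp per Mb and DMSO libraries 342 ± 121 bp per Mb, a difference of -4.82 (SE 16.6; exact permutation p = 0.779, 8 of 16 pairs). With every list held to its 26145 widest peaks the difference in regions turned to 0.25 (exact permutation p = 0.889).

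**Figure D3:**
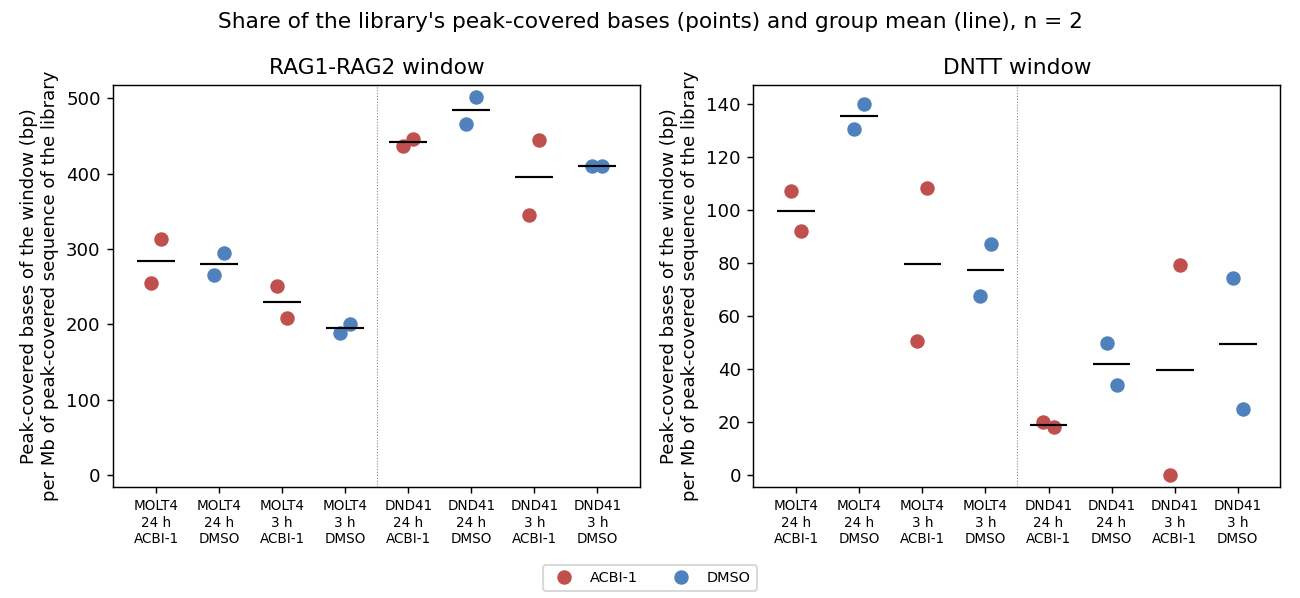
Bases of the RAG1-RAG2 window (left) and the DNTT window (right) covered by peaks, per Mb of peak-covered sequence of the library (vertical axis), for each library (points) of the 8 groups with the group mean (line, n = 2). MOLT4 libraries lie at 189 to 313 in the RAG1-RAG2 window and DND41 libraries at 345 to 502, while ACBI-1 and DMSO libraries of a line overlap.

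Within DND41, ACBI-1 libraries had 14 ± 2.16 regions and DMSO libraries 21.8 ± 2.63 (SD, n = 4 each), and the ranges of 11 to 16 and 18 to 24 did not overlap. Within MOLT4, ACBI-1 libraries had 9 ± 0.816 and DMSO libraries 12 ± 1.83, with ranges of 8 to 10 and 10 to 14 that met at 10. Both differences had the smallest exact permutation p possible within a line, 0.0556. Scaled to list size they were small and opposite in sign, -28.9 bp per Mb in DND41 (exact permutation p = 0.389) and 19.3 bp per Mb in MOLT4 (exact permutation p = 0.333). The ACBI-1 effect in MOLT4 minus that in DND41 was 4.75 regions (SE 1.71; exact permutation p = 0.338), and at 24 h minus 3 h it was -2.25 regions (exact permutation p = 0.340). The spread of those tests includes any difference between lines or times that both treatments share, so they can miss a difference between effects.

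The RAG1-RAG2 region with the largest difference in presence between ACBI-1 and DMSO libraries was R2, chr11:36509664-36510041. R2 had a peak in 2 of 8 ACBI-1 libraries, both DND41 at 3 h, and in 8 of 8 DMSO libraries (exact permutation test with Benjamini-Hochberg adjustment, adjusted p = 0.0497). Its 2 peaks after ACBI-1 were 239 and 185 bp wide, and its DMSO peaks were 268 to 375 bp wide. It was the 1 region called of 4 tested in the window, close to the 27.9% of 8082 regions called with fewer peaks after ACBI-1 in the genome. A call of this kind was therefore common. With equal list lengths the adjusted p of R2 was 0.0997 by the same test. The call was marginal, since leaving out any 1 of the 16 libraries gave an adjusted p of 0.0501 to 0.0587, while the same omissions left 0 to 1112 regions called in the genome, against 2260 with all libraries. R14 at chr11:36623797-36624150 had a peak in 3 ACBI-1 and 7 DMSO libraries, with an adjusted p of 0.200 by the same exact permutation test. R23 and R27 at chr11:36705467-36705685 each had 1 ACBI-1 and 4 DMSO libraries, with an adjusted p of 0.439.

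Of the 15 regions in 4 to 15 libraries, 11 had a peak in fewer ACBI-1 than DMSO libraries, close to the 75% of such regions in the genome, 3 in equal numbers and 1 in more. Of the 11, R22, R23, R24 and R27 had 1 ACBI-1 and 4 DMSO libraries each. The 1 in more was R3, with 5 ACBI-1 and 2 DMSO libraries, which could not reach a p of 0.05 and was not tested. R7, R10 and R11 were the 3 with equal numbers, at 3, 5 and 7 libraries of each treatment. R7 lies at chr11:36586063-36586371. The 9 scarcer regions held 2 peaks in ACBI-1 and 16 in DMSO libraries.

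Peak width at the regions open in every library showed no called ACBI-1 effect. R13 had peaks of 273 ± 59.6 bp in ACBI-1 libraries and 372 ± 144 bp in DMSO libraries (SD, n = 8 each), a log2 difference of -0.38 (SE 0.14; exact permutation p = 0.0355), with an adjusted p of 0.156 over 12037 regions. R9 differed by -0.22, R4 by -0.04, R8 by 0.03 and R28 by 0.09 in log2 width. The background was 3.25% of those 12037 regions narrower after ACBI-1 at an adjusted p under 0.05. Between lines, R9 peaks were 259 ± 56.5 bp in MOLT4 and 349 ± 48.8 bp in DND41 libraries, a log2 difference of -0.45 (SE 0.12; exact permutation p = 0.00926, adjusted p = 0.0707). R13, R4, R28 and R8 differed by -0.22, -0.11, -0.04 and -0.00107 in log2 width and were not called, against 3.12% of regions narrower in MOLT4.

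By time, R8 peaks were 449 ± 65.5 bp wide at 24 h and 295 ± 79.0 bp at 3 h (SD, n = 8 each), a log2 difference of 0.64 (SE 0.21; exact permutation p = 0.00154, adjusted p = 0.0157). R13 peaks were 392 ± 134 bp at 24 h and 253 ± 29.2 bp at 3 h, a log2 difference of 0.56 (SE 0.14; exact permutation p = 0.0123, adjusted p = 0.0437). At both regions the 24 h and 3 h widths overlapped. R13 widths at 24 h were 255, 331, 205 and 384 bp after ACBI-1 and 377, 437, 570 and 577 bp after DMSO, and its 3 h widths stayed within 214 to 293 bp. R28, R9 and R4 differed by 0.21, 0.17 and 0.07 on the log2 scale and were not called. The 2 of 5 regions called wider at 24 h stand against 30.8% of 12037 regions in the genome.

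**Figure D4:**
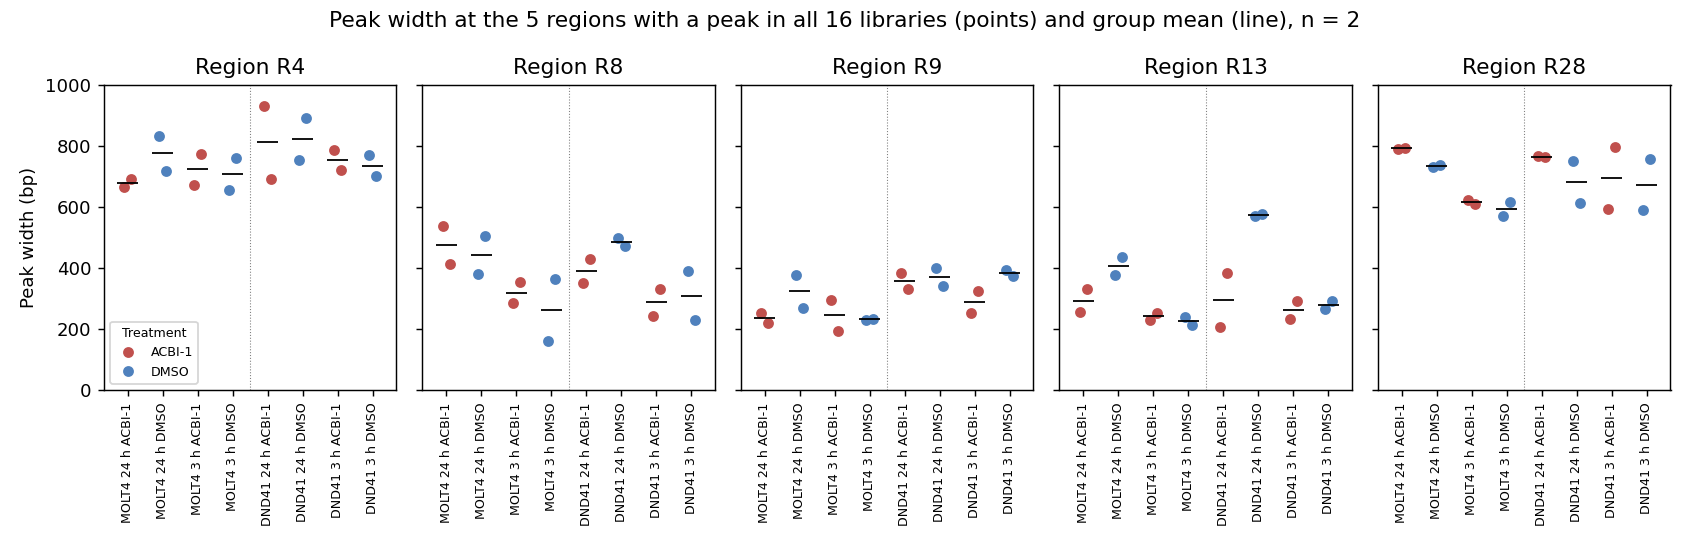
Peak width in bp (vertical axis) at the 5 regions of the RAG1-RAG2 window with a peak in all 16 libraries, for each library (points) of the 8 groups with the group mean (line, n = 2). R4 and R28 have the widest mean peaks of the 5 regions in all 8 groups, and R8 and R13 average 449 and 392 bp at 24 h against 295 and 253 bp at 3 h.

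By presence, 24 h libraries held 15.3 ± 5.50 regions of the window and 3 h libraries 13.1 ± 4.97 (SD, n = 8 each), a difference of 2.13 (SE 0.857; exact permutation p = 0.0340, 13 of 16 pairs). The tile-adjusted p was 0.353, and 0% of 8505 tiles had more regions at 24 h at an adjusted p under 0.05 (636 did at an unadjusted p under 0.05). Without the first DND41 ACBI-1 library of 3 h the difference was 1.5 regions (exact permutation p = 0.105), and without any 1 of the 4 DND41 libraries of 24 h the exact permutation p was 0.0525 to 0.0648. Of single regions, R7 had a peak in 6 of 8 libraries at 24 h and 0 of 8 at 3 h (exact permutation p = 0.0139). R18 at chr11:36639802-36640616 had 8 of 8 at 24 h and 3 of 8 at 3 h (exact permutation p = 0.0278). Neither was called, with an adjusted p of 0.246 each, and 0% of 3762 regions in the genome had more peaks at 24 h at an adjusted p under 0.05 (290 had more and 299 fewer at an unadjusted p under 0.05). In bases, peaks covered 6629 ± 2285 of the window in 24 h libraries and 4584 ± 1809 in 3 h libraries (exact permutation p = 0.00154). As a share, 24 h libraries had 372 ± 100 bp per Mb and 3 h libraries 307 ± 107 bp per Mb (exact permutation p = 0.00463).

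The DNTT window held more peaks in MOLT4 than in DND41. None of its 9 regions had a peak in all 16 libraries, against 9.16% of regions in the whole series. With so few regions, this absence does not set the window apart. D5 at chr10:98066095-98066957 had a peak in 13 libraries, D4 at chr10:98059244-98059803 in 11, and D3 at chr10:98055266-98055788 in 9. D2 at chr10:98053154-98053503 and D7 at chr10:98072835-98073865 had a peak in 8 each, and D8 at chr10:98092849-98093386 in 6. D1, D6 and D9 had 4 peaks among them, of 155 to 290 bp, all in DMSO libraries. D7 carried the widest DNTT peaks, up to 838 bp in a MOLT4 library given DMSO for 24 h.

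**Figure D5:**
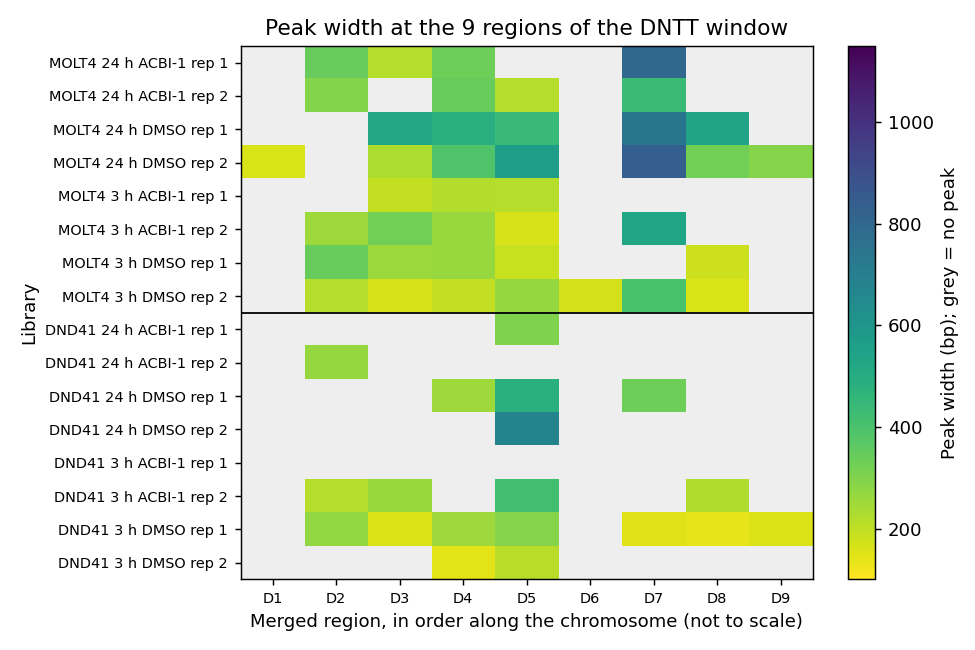
Width in bp (colour; grey where no peak was listed) of the peak at each of the 9 merged regions of the DNTT window (horizontal axis, in order along chromosome 10) in each of the 16 libraries (vertical axis, MOLT4 above the line and DND41 below). D4 is filled in 8 of 8 MOLT4 and 3 of 8 DND41 libraries, and D7 in 6 of 8 MOLT4 and 2 of 8 DND41 libraries.

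MOLT4 libraries had 4 and 4 DNTT regions with a peak after 24 h of ACBI-1, 3 and 5 after 3 h of ACBI-1, 5 and 7 after 24 h of DMSO, and 5 and 7 after 3 h of DMSO. DND41 libraries had 1 and 1, then 0 and 4, then 3 and 1, and then 7 and 2 in the same 4 groups. MOLT4 was higher in 13 of 16 pairs. The DND41 libraries varied most at 3 h, where 1 ACBI-1 library had 0 regions and 1 DMSO library had 7. The library with 0 regions also had the shortest list, 26145 peaks covering 10.4 Mb.

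The means were 5 ± 1.41 regions in MOLT4 and 2.38 ± 2.26 in DND41 (SD, n = 8 each), a difference of 2.63 (SE 0.944; exact permutation p = 0.0201). Over tiles of 60000 bases the adjusted p was 0.0655, and 16.8% of 15145 tiles had more regions in MOLT4 at an adjusted p under 0.05, so the DNTT window was not called among them. Without the second DMSO 3 h library of MOLT4 the exact permutation p was 0.0571, and without that of DND41 it was 0.0617. Peaks made up 98.0 ± 30.2 bp per Mb of peak-covered sequence in MOLT4 libraries and 37.5 ± 28.0 in DND41 libraries, a difference of 60.5 (SE 14.2; exact permutation p = 0.00772). In bases of the window the means were 1682 ± 737 in MOLT4 and 651 ± 501 in DND41 (exact permutation p = 0.00772).

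All 6 DNTT regions found in 4 to 15 libraries had a peak in more MOLT4 than DND41 libraries, against 46.8% of such regions in the genome. D2, D3, D4, D7 and D8 reached 4 libraries in MOLT4 but not in DND41. They passed the filter through the line where they are high, so the count is a description. D4 was called, with 8 of 8 MOLT4 and 3 of 8 DND41 libraries (exact permutation test with Benjamini-Hochberg adjustment, adjusted p = 0.0433). Its widths were 198 to 486 bp in MOLT4, and 143, 253 and 255 bp in the 3 DND41 libraries with a peak, all of them DMSO. D3 had 7 MOLT4 and 2 DND41 libraries (adjusted p = 0.0594 by the same exact permutation test), and D7 had 6 and 2 (adjusted p = 0.201). The 1 called of 3 tested stands against 40.8% of 11709 regions with more MOLT4 peaks in the genome, so the call was of a common kind. D5 had a peak in 7 MOLT4 and 6 DND41 libraries, D2 in 5 and 3, and D8 in 4 and 2.

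The differences in region number between the lines thus had opposite signs in the RAG1-RAG2 and DNTT windows. Only that of the RAG1-RAG2 window was called over genome tiles. Of the regions with a peak in either window, 32.0 ± 4.97% lay in the DNTT window in MOLT4 libraries and 10.3 ± 8.13% in DND41 libraries (SD, n = 8 each). The difference was 21.7 percentage points (SE 3.76; exact permutation p = 0.00154), and the ranges of 25 to 38.9% and 0 to 24.1% did not overlap. This share was chosen after the values of both windows had been seen. It was 19.5 ± 13.7% in ACBI-1 and 22.9 ± 12.8% in DMSO libraries, a difference of -3.41 points (SE 3.76; exact permutation p = 0.316).

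ACBI-1 libraries had 2.75 ± 1.83 DNTT regions and DMSO libraries 4.63 ± 2.39 (SD, n = 8 each), a difference of -1.88 (SE 0.944; exact permutation p = 0.0556, 12 of 16 pairs). The ACBI-1 mean was 59.5% of the DMSO mean, against 72.1% for all regions of a library and a median of 80% over tiles of 60000 bases. The tile-adjusted p was 0.136, and 11.2% of 12823 tiles had fewer regions after ACBI-1 at an adjusted p under 0.05. Peaks covered 854 ± 638 bases of the window in ACBI-1 libraries and 1479 ± 880 in DMSO libraries (exact permutation p = 0.0262), and p was 0.0525 to 0.0988 without any 1 of 4 libraries of 3 h. As a share they covered 59.4 ± 43.1 bp per Mb in ACBI-1 libraries and 76.1 ± 42.0 in DMSO libraries (exact permutation p = 0.218). At 24 h the difference in share was -29.3 bp per Mb (exact permutation p = 0.0556, the smallest possible within a time). At 3 h it was -3.94 bp per Mb (exact permutation p = 0.944). The ACBI-1 effect in MOLT4 minus that in DND41 was -0.25 regions (exact permutation p = 1), and at 24 h minus 3 h it was 0.75 (exact permutation p = 0.784).

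Of single DNTT regions, D8 had a peak in 1 ACBI-1 and 5 DMSO libraries (exact permutation test with Benjamini-Hochberg adjustment, adjusted p = 0.200). D5 had a peak in 5 ACBI-1 libraries, of 162 to 419 bp, and in 8 DMSO libraries, of 187 to 676 bp. D2 was the 1 region found in more ACBI-1 than DMSO libraries, 5 against 3 (adjusted p = 0.777 by the same exact permutation test). Over both windows, 10 of 38 regions were listed in DMSO libraries only, 5 of them in a single library, against 37.5% of all regions. None of the 38 was listed in ACBI-1 libraries only, against 25.6% of all regions. Regions in 1 library were 5 of the 38 but 51% of all regions, so these shares do not compare like sets. At 24 h libraries held 3.25 ± 2.19 DNTT regions and at 3 h 4.13 ± 2.42 (exact permutation p = 0.432), while peaks covered 1351 ± 992 bases in 24 h libraries and 982 ± 584 in 3 h libraries (exact permutation p = 0.196).

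By the number of regions with a peak in each of the 16 libraries, the genome tiles most like the RAG1-RAG2 window lay at chr12:88440001-88660000, with a Spearman rho of 0.950, at chr1:196460001-196680000, with 0.944, and on chromosome 8, also with 0.944. The most like the DNTT window were chr7:30180001-30240000, with a rho of 0.912, chr12:124380001-124440000, with 0.905, and chr11:34260001-34320000, with 0.898. These are the highest of 7151 and 4732 tiles and share library, treatment and list length with the windows, so they are descriptions. The rho of a window with the number of regions in the whole list was 0.538 for RAG1-RAG2 and 0.386 for DNTT.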

How the data were processed

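Chromatin accessibility was measured in 16 ATAC-seq libraries. Per the submitters' processing notes, the build is hg19 and MACS2 2.1.1.2016030, SAMtools, Picard and Bowtie2 were used, with no role or setting given. Each deposited file is a peak list of 1 library with 4 columns, which give each peak's name and its position (chromosome, start and end). The deposited positions were the only values used, so depth is unknown and no counting interval is given. Peaks on chromosomes 1 to 22 and X that shared at least 1 base were merged, and each region was scored for a peak and its width in each library. Where a library had more than 1 peak in a region, their widths were added. Samples were grouped by title.

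Treatments, lines and times were compared with two-sided exact permutation tests that exchange labels within the 4 strata of the other factors (1296 exchanges, smallest p 0.00154; 0.0556 within 2 strata and 0.333 within 1). SE is that of the mean difference, from the spread within groups. Regions whose peak numbers allow a p of 0.05 or less, log2 widths of regions in all 16 libraries, and genome tiles of 220000 or 60000 bases were tested genome-wide, with Benjamini-Hochberg adjustment and calls at an adjusted p under 0.05. Python 3.11.15, NumPy 2.4.6 and SciPy 1.17.1 were used, and the test was tested on simulated presence calls.

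By the rule for named regions, those in at least 4 libraries are described by position and the others by counts (R15, in 3 libraries, is named outside it), and the 3 tiles with the highest Spearman rho are given. The windows, members and settings were chosen with earlier results of these data known. Alternatives were leaving out each library, a replicate block, a common minimum peak width, equal list lengths, other merging rules, wider windows, an unstratified test, other region filters and scaling by list size. The main tests did not use the replicate numbers as pairs. Within a line and time, replicate differences of ACBI-1 and DMSO correlated at -0.076 to 0.0051 over 45121 regions. This does not test pairing between lines or between times. No annotation of the hg19 build was used, so regions carry no gene name, and the planned checks of V(D)J joining genes and of cell type markers were not run.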

Additional observations from a re-analysis of the deposited data

How the results depend on the processing

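The lower region number and covered bases of the RAG1-RAG2 window in MOLT4 than in DND41, and the higher DNTT covered bases and DNTT share in MOLT4, kept their direction and stayed under 0.05 in every alternative run for them. The share was chosen after seeing the data and combines the region numbers of both windows, so it is no separate result. The higher DNTT region number in MOLT4 kept its direction, but its exact permutation p was over 0.05 in 2 alternatives. With equal list lengths (26145 widest peaks), ACBI-1 minus DMSO was 0.25 regions and -583 bases (exact permutation p = 0.131) for RAG1-RAG2, and 0.625 regions and -104 bases (exact permutation p = 0.694) for DNTT. The DNTT share differed by 4.52 points, 24 h minus 3 h by 0.875 DNTT regions, and the ACBI-1 effect on DNTT regions by 0.25 between lines and -2.75 between times. Scaled to list size, ACBI-1 minus DMSO was -0.201 RAG1-RAG2 regions per 10000 (exact permutation p = 0.386; added after seeing the data), and, in bp per Mb of peak-covered sequence, -4.82 for RAG1-RAG2 and -16.6 for DNTT. The RAG1-RAG2 difference of 24 h and 3 h was 0.376 per 10000 (exact permutation p = 0.117) and 1.75 with regions in at least 2 libraries (exact permutation p = 0.0648). Without strata the differences were the same and the exact permutation p-values were 0.113 (-1816 RAG1-RAG2 bases, ACBI-1), 0.454 (2.13 regions, time), 0.0706 (2045 bases, time) and 0.129 (-624 DNTT bases, ACBI-1). With a common minimum width of 170 bp, DNTT differed by -471 bases with ACBI-1 (exact permutation p = 0.0648), by 0.125 regions with time and by -0.75 regions in the ACBI-1 effect between times. The cause of these shifts was not tested.

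Leaving out each library gave RAG1-RAG2 differences of -6 to -4.75 regions with ACBI-1, 1.5 to 2.75 with time and -3.5 to -1 in the ACBI-1 effect between times. DNTT differences were -2.5 to -1.25 regions and -765 to -484 bases with ACBI-1, 2 to 3.25 regions with line, and -1.5 to 1 and -0.5 to 2 in the ACBI-1 effect between lines and between times. The exact permutation p for DNTT regions with ACBI-1 was 0.0185 to 0.222. It was under 0.05 without the second ACBI-1 3 h library of either line, the first DMSO 3 h library of MOLT4, or the second DMSO library of DND41 at 24 h or 3 h. For DNTT bases with ACBI-1 it was over 0.05 without the first ACBI-1 3 h library of either line, the second DMSO 3 h library of MOLT4 or the first of DND41. For the ACBI-1 effect on RAG1-RAG2 regions between times, the exact permutation p was 0.0494 without the first DND41 ACBI-1 3 h library. By the same test it was at or over 0.05 in the other 15 omissions and 0.340 with all libraries. The 1 region called with ACBI-1 became 0 to 0 without each library, and 0 with a common minimum width, equal list lengths, merging up to 100 bases apart or no strata. The 7 regions called between lines became 5 to 8 without each library, 3 with equal list lengths and 2 without strata. The main tests did not pair same-numbered libraries. A replicate block (256 exchanges) gave 2 line calls and an exact permutation p of 0.0547 for the -624 DNTT bases with ACBI-1. It changed no other window result or count of calls past its threshold. Depth was not given, so the limit of detection of each list is unknown.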
